A study of Mus musculus with 12 samples.

Results

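The Slc4 genes encode membrane proteins that carry bicarbonate, most of them in exchange for chloride or together with sodium. The 9 family members Slc4a1, Slc4a2, Slc4a3, Slc4a4, Slc4a5, Slc4a7, Slc4a8, Slc4a10 and Slc4a11 were taken by name, with all of their probe sets. Of these, 8 genes with 9 probe sets had values among the 19938 genes and 35512 probe sets of the arrays, while Slc4a7, a sodium bicarbonate cotransporter gene, was not analysed here. The family was chosen by the measured log2 changes of Slc4a4, the lowest shared by both siRNAs in an earlier ranking of these arrays, so its levels against the controls are given as a description, without a test. The other members entered through their family name.

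Expression was measured on 12 Affymetrix arrays of NIH3T3, a mouse cell line that grows as fibroblasts. The groups were sirUBF oligo #2 and sirUBF oligo #1 (here oligo 2 and oligo 1), both siRNAs against UBF, then sirEGFP, an siRNA named for EGFP, and Mock, the transfection reagent Dharmafect 2 with no siRNA. There were 3 arrays per group, biological replicates by the design text of the series. The siRNA dose was 40 nM, and RNA of all 4 groups was taken 48 h after transfection. No group carries a stated genetic change, and all were cultured in the same serum-containing medium. UBF is the product of Ubtf and works in the nucleolus, where it binds ribosomal RNA genes for transcription by RNA polymerase I.

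Bicarbonate is the main buffer of body fluids, and its movement across the plasma membrane helps to set the pH inside cells. Exchangers such as those of Slc4a1, Slc4a2 and Slc4a3 swap chloride for bicarbonate, and in most cells this removes base. Sodium-coupled members such as Slc4a4 and Slc4a5 usually bring bicarbonate in and so counter acid, although in the kidney tubule Slc4a4 carries it out of the cell to the blood side. Carbonic anhydrases, which interconvert carbon dioxide and bicarbonate, supply these transporters.

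Array medians lay between 5.38 and 5.54, and the first component of the variance within groups held 41.5% of it. Its outermost arrays were oligo 1 arrays 1 and 2 and sirEGFP array 1. Without these 3 arrays oligo 1 rests on array 3 alone, so values of that setting are given as effect sizes, with no test. The fibroblast markers Vim and Col1a2 were between 12.76 and 12.91 and between 8.61 and 9.48 on the 12 arrays, while Lum was between 2.99 and 3.46. Of 10 fibroblast markers, Pdgfra (0.91, adjusted p = 0.0119) and Pdgfrb (1.75, adjusted p = 0.0126) rose with oligo 2 and 0 were called with oligo 1, where 2.26% and 2.47% of all genes were called with oligo 2 and oligo 1. Their mean level was 7.93 to 8.16 with oligo 2, 7.77 to 8.14 with oligo 1, 7.58 to 7.79 with sirEGFP and 7.78 to 7.96 in Mock. Of 6 macrophage markers, Csf1r rose with oligo 1 (0.83, adjusted p = 0.00874) and 0 were called with oligo 2, where Cd68 stood at 1.00 (adjusted p = 0.0648). Their mean level was 4.75 to 5.05, 4.89 to 4.996, 4.68 to 4.84 and 4.72 to 4.93 in the same order of groups. Limma called 0 of 6 epithelial and 0 of 5 neuronal markers with either siRNA, counts that are near the shares of all genes called and do not set these markers apart. The part of these shifts in the Slc4 results was not tested.

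Slc4a4 is known to be transcribed from more than 1 start, and the promoter table of RefSeq (GRCm38.p6) lists 2. Both are shown because the single probe set for the gene does not tell them apart. Each run gives the 250 bases before the start on the plus strand, from chr5:88887010-88887259 and chr5:89027716-89027965, with motif matches in capitals.
Slc4a4 upstream start: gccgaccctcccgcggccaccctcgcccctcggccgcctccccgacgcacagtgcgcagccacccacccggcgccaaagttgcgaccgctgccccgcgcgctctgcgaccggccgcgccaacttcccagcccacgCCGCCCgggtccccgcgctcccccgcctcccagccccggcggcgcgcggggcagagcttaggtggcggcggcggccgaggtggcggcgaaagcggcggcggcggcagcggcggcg
Slc4a4 downstream start: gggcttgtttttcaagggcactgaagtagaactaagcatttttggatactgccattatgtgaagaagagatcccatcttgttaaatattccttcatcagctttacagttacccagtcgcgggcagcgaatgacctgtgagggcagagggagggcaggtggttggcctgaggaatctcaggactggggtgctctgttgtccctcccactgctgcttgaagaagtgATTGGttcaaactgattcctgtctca

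The upstream window held 44 CpG dinucleotides and 82.0% G and C, and 99.5% of the 32851 windows in the table held fewer CpG. The downstream window held 3 CpG and 48.8% G and C, against medians of 6 CpG and 52.4% over all windows. The letters searched on both strands were GGGCGG (the GC box), TATAAA (the TATA box), CACGTG (an E-box) and CCAAT (the box of that name). The GC box was found once, in the upstream window, on the opposite strand, and the CCAAT box once, in the downstream window, also on the opposite strand; the motifs did not overlap. Of all windows, 32.7% held the GC box, 33.8% the CCAAT box, 12.4% the TATA box and 6.02% the E-box. These matches are letters in a window and say nothing of which start the cells used.

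Slc4a4 encodes an electrogenic sodium bicarbonate cotransporter. Its log2 level was 6.92, 6.83 and 6.78 on the oligo 2 arrays, 6.15, 6.28 and 6.30 on the oligo 1 arrays, 8.19, 7.93 and 7.86 on the sirEGFP arrays, and 7.73, 7.98 and 8.20 on the Mock arrays. All 6 knockdown arrays were low and all 6 control arrays high, with a gap of 0.81 between the highest knockdown and the lowest control array. Between the siRNAs, the lowest oligo 2 array lay 0.48 above the highest oligo 1 array. The share of all genes with the siRNAs apart in this way was not counted. The sirEGFP and Mock arrays overlapped. Among all genes, 0.692% had all 6 knockdown arrays below all 6 controls, and the earlier ranking took Slc4a4 from among them.

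The mean level was 6.85 ± 0.073 (SD, n = 3) with oligo 2, 6.24 ± 0.079 with oligo 1, 7.99 ± 0.17 with sirEGFP and 7.97 ± 0.23 in Mock. The log2 change against sirEGFP was -1.15 ± 0.13 (limma's standard error, SE) with oligo 2 and -1.75 ± 0.13 with oligo 1. This is 2.22-fold and 3.37-fold lower, or -54.9% and -70.3%. With oligo 1 the change was the lowest of the 19938 genes, and with oligo 2 it ranked 15 from the lowest. Both values share the sirEGFP arrays. Against Mock, which shares none of them, the mean of both siRNAs stood at -1.43 ± 0.12, the lowest change of all genes in that comparison. The choice of Slc4a4 used these knockdown arrays and required them to lie below the Mock arrays too, so this value is no independent check. The controls differed in Slc4a4 by 0.022 (sirEGFP minus Mock, 95% interval -0.26 to 0.31).

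The earlier ranking took genes called with both siRNAs, lower in each, with all 6 knockdown arrays below all 6 controls. In that ranking of 15 genes, Slc4a4 had a mean change over both siRNAs of -1.45. The next was the small nucleolar RNA Snora73a, at -1.23. In all, 0.401% of genes were called with both siRNAs in the same direction, a share that holds higher and lower genes, where the ranking took only lower ones.

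**Figure D1:**
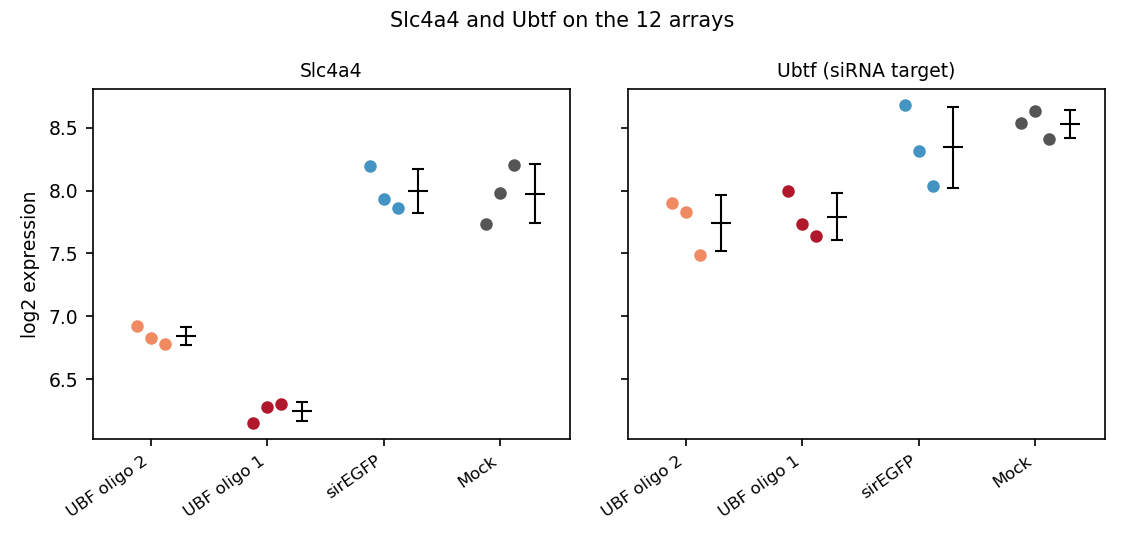
Log2 expression (y axis) of Slc4a4 on the left and of Ubtf, the siRNA target, on the right, by group. Points are single arrays and the bars show mean ± SD (n = 3 per group). Slc4a4 spans 6.15 to 6.92 with the UBF siRNAs, against 7.73 to 8.20 in the controls, and oligo 1 lies lower than oligo 2, while Ubtf has close levels with both siRNAs.

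The size of the decrease differed between the siRNAs. Slc4a4 was higher with oligo 2 than with oligo 1 by 0.60 on the log2 scale (95% interval 0.32 to 0.89), or 1.52-fold, in 3 arrays against 3. Limma called this difference (adjusted p = 0.0198 over 19938 genes), where 3.67% of all genes were called. The same knockdown arrays and their spread entered the choice of Slc4a4, so this p-value is not independent of that choice. The call rested on every array of the siRNA groups but oligo 1 array 2. It was lost without oligo 1 array 1 or array 3 (adjusted p = 0.0625 and 0.0598) and without oligo 2 array 1, 2 or 3 (0.0850, 0.0647 and 0.0578), with the difference between 0.56 and 0.63. It was also lost when all 35512 probe sets were tested (adjusted p = 0.0573), where 1.48% were called. Without the 3 outermost arrays named above, which leaves oligo 1 array 3 alone in its group, the difference was 0.54.

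The target Ubtf did not show this order. It stood at 7.90, 7.83 and 7.49 with oligo 2, at 7.998, 7.74 and 7.64 with oligo 1, at 8.68, 8.31 and 8.04 with sirEGFP and at 8.54, 8.63 and 8.41 in Mock. All 6 knockdown arrays lay below all 6 controls, by a gap of 0.041, a pattern that 0.692% of all genes had. The siRNAs overlapped, and their difference in Ubtf was -0.052 (oligo 2 minus oligo 1, 95% interval -0.40 to 0.30). Against sirEGFP, Ubtf did not pass the test over all genes with oligo 2 (-0.61 ± 0.17, adjusted p = 0.0771) or with oligo 1 (-0.55 ± 0.17, adjusted p = 0.107). With oligo 2 it passed without sirEGFP array 3 (adjusted p = 0.0490). It passed with both siRNAs against the mean of Mock and sirEGFP (-0.70 with oligo 2 and -0.64 with oligo 1, adjusted p = 0.0114 and 0.0185) and with array weights, which rate the arrays by their spread (0.0204 and 0.00178). Array weights called 1180 of 19938 genes with oligo 2 and 3814 with oligo 1, against 451 and 493 as deposited. In bulk RNA, fewer cells with a transcript and less of it per cell cannot be told apart.

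Among the chloride bicarbonate exchangers, Slc4a1 encodes the band 3 protein of red blood cells. It stood at 5.62 on each of the 3 oligo 2 arrays, at 5.55, 6.03 and 5.57 with oligo 1, at 5.49, 5.74 and 5.71 with sirEGFP and at 5.53, 5.83 and 5.50 in Mock. The groups overlapped, and the change against sirEGFP was -0.028 with oligo 2 (95% interval -0.33 to 0.28) and 0.069 with oligo 1 (-0.24 to 0.37). Of the erythroid markers, 4 of 7 were measured and limma called 0 of them with either siRNA, which is near the 2.26% and 2.47% called over all genes.

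Slc4a2 encodes the exchanger that most cell types carry. Its levels were 6.36, 6.34 and 6.12 with oligo 2, 6.95, 6.13 and 6.33 with oligo 1, 6.39, 6.24 and 5.72 with sirEGFP, and 6.30, 6.37 and 6.11 in Mock. Oligo 1 array 1 was the highest of the 12 and sirEGFP array 3 the lowest. The change was 0.15 with oligo 2 (adjusted p = 0.843) and 0.35 with oligo 1 (adjusted p = 0.507). Without oligo 1 array 1 the oligo 1 value was 0.11, and without sirEGFP array 3 it was 0.15.

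Slc4a3, an exchanger best known from heart and nervous tissue, has 2 probe sets on the array, and they disagreed. Probe set 10347697, annotated to the RefSeq transcript and the brighter over all arrays, stood at 5.94, 5.89 and 5.87 with oligo 2, at 6.44, 5.74 and 5.95 with oligo 1, at 5.83 on each sirEGFP array and at 6.07, 5.94 and 5.76 in Mock. Its groups overlapped, with changes of 0.069 with oligo 2 (adjusted p = 0.921) and 0.21 with oligo 1 (adjusted p = 0.635). Without oligo 1 array 1, its highest, the oligo 1 change was 0.017, and without oligo 1 array 2 it was 0.36.

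Probe set 10347724, annotated to a single cDNA of Slc4a3, stood at 5.27, 5.70 and 5.41 with oligo 2, at 5.32, 6.26 and 5.49 with oligo 1, at 5.12, 4.57 and 4.47 with sirEGFP, and at 4.65, 4.86 and 4.90 in Mock. All 6 knockdown arrays lay above all 6 controls, by a gap of 0.15, a pattern that 0.986% of the 35512 probe sets had. The change was 0.74 ± 0.24 with oligo 2 and 0.97 ± 0.24 with oligo 1. Neither passed limma's test over all probe sets (adjusted p = 0.260 and 0.118), where 0.504% and 0.248% were called higher with oligo 2 and oligo 1. Oligo 1 array 2 held the highest value, and without it the oligo 1 change was 0.69. Without the 3 outermost arrays the oligo 2 change was 0.94. With array weights the oligo 1 change passed (0.87, adjusted p = 0.00635), a setting that called 3814 of 19938 genes with oligo 1. Which transcript this probe set reads, and on which strand, was not tested, and its values are given apart from the gene.

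Slc4a5, an electrogenic cotransporter like Slc4a4, had levels of 4.50, 4.79 and 4.92 with oligo 2, 4.82, 4.90 and 5.001 with oligo 1, 4.63, 4.86 and 4.88 with sirEGFP, and 5.05, 4.64 and 5.12 in Mock. The groups overlapped, and the change was -0.054 with oligo 2 (95% interval -0.37 to 0.26) and 0.12 with oligo 1 (-0.20 to 0.43). Both intervals ended above the changes of Slc4a4, but every Slc4a5 value lay below the lowest array median of 5.38. Whether a fall of that size could show at such a level was not tested.

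Slc4a8 and Slc4a10 encode sodium-coupled bicarbonate transporters best known from neurons. Slc4a8 stood at 5.83, 5.82 and 5.92 with oligo 2, at 6.09, 5.53 and 5.56 with oligo 1, at 5.88, 5.83 and 5.67 with sirEGFP, and at 5.82, 5.79 and 5.68 in Mock. Both its highest and its lowest array belonged to oligo 1. Slc4a10 stood at 4.71, 4.87 and 4.77 with oligo 2, at 4.84, 5.04 and 4.72 with oligo 1, at 4.53, 4.78 and 5.29 with sirEGFP, and at 5.10, 4.95 and 5.04 in Mock. Its lowest and highest arrays were both sirEGFP, so the controls alone spanned its whole range. With oligo 2 and oligo 1 the changes were 0.060 and -0.068 for Slc4a8, and -0.083 and 0.0018 for Slc4a10, none of which passed.

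Slc4a11, which is placed in the family by sequence and is known for moving protons or ammonia rather than bicarbonate, stood at 4.81, 4.63 and 4.13 with oligo 2, at 4.71, 4.64 and 4.98 with oligo 1, at 4.66, 4.16 and 4.68 with sirEGFP, and at 4.79, 4.60 and 4.60 in Mock. The groups overlapped, and the change was 0.022 with oligo 2 (adjusted p = 0.978) and 0.28 with oligo 1 (adjusted p = 0.590). With array weights, which called 3814 of 19938 genes with oligo 1, Slc4a11 was called with oligo 1 (0.56, adjusted p = 0.0144).

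**Figure D2:**
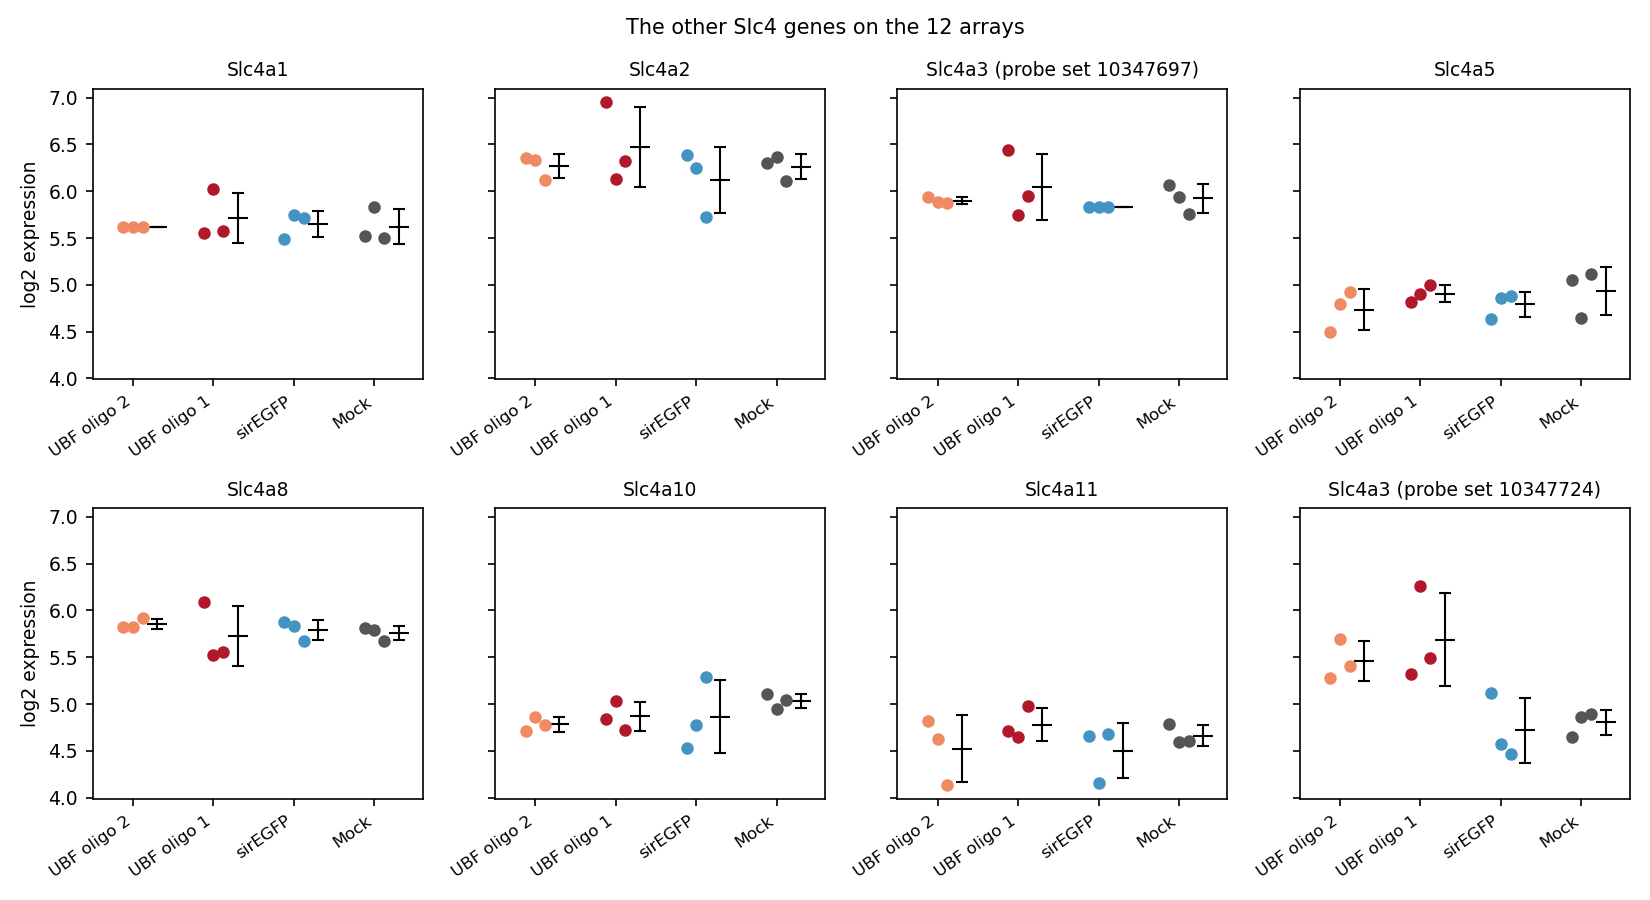
Log2 expression (y axis, the same in all panels) of the other 7 Slc4 genes and of the other probe set of Slc4a3, by group. Points are single arrays and the bars show mean ± SD (n = 3 per group). The groups overlap for the 7 genes, while probe set 10347724 of Slc4a3 lies above all controls on all 6 knockdown arrays.

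Over the family, the 7 members other than Slc4a4 lay between 4.13 and 6.95 on the 12 arrays, and each spanned 0.54 to 1.23 across them, against 2.05 for Slc4a4. Limma called 0 of these 7 with oligo 2 and 0 with oligo 1 against sirEGFP, while 2.26% and 2.47% of all genes were called, and 0 of the 7 had an unadjusted p under 0.05 with either siRNA. A count of 0 among 7 genes is near these shares and does not set the family apart. Their median change was 0.022 with oligo 2 and 0.12 with oligo 1, against -0.0077 and 0.022 over all genes. Their changes reached from -0.083 to 0.15 with oligo 2 and from -0.068 to 0.35 with oligo 1. On all arrays Slc4a5, Slc4a10 and Slc4a11 lay below the lowest array median of 5.38, and whether a fall could show there was not tested. Against Mock, 0 of the 7 were called for the mean of both siRNAs, where 3.3% of genes were. Between the siRNAs 0 of the 7 were called, with differences of -0.25 to 0.13 (oligo 2 minus oligo 1). Between sirEGFP and Mock limma called 0 of 8 members and 0 of 19938 genes, with 0 members, and 765 genes higher and 482 lower, at an unadjusted p under 0.05.

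**Figure D3:**
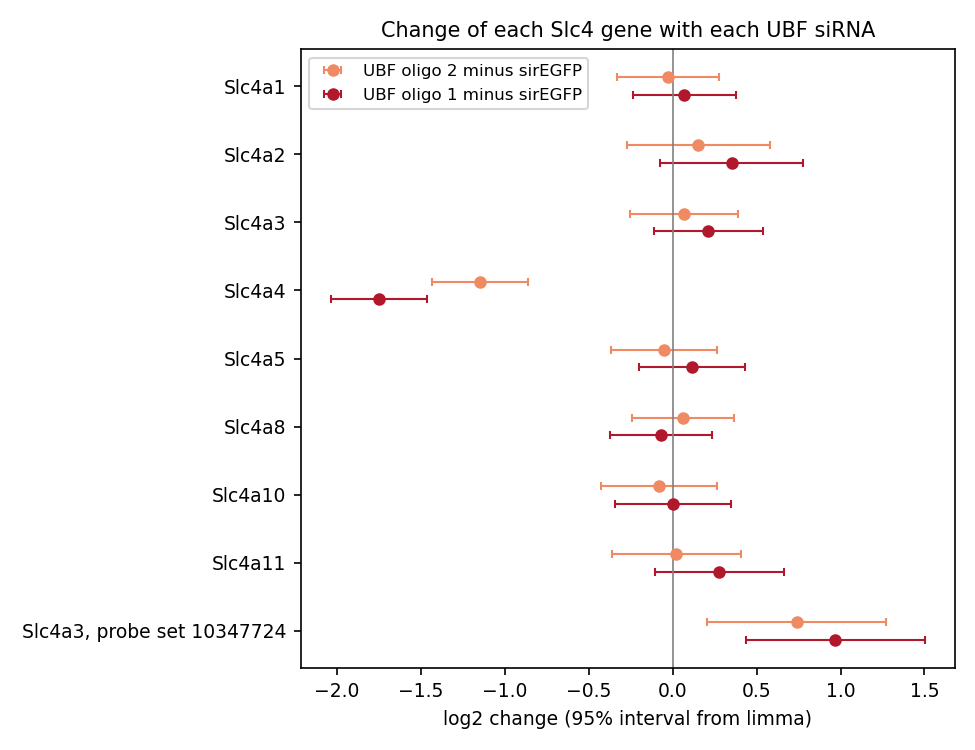
Log2 change against sirEGFP (x axis) of each Slc4 gene and of the other probe set of Slc4a3, for oligo 2 and oligo 1, with limma's 95% interval. Slc4a4 stands at -1.15 and -1.75, the other genes lie between -0.083 and 0.35, and the intervals of those 7 include 0; both comparisons share the sirEGFP arrays.

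Genes that work beside the Slc4 transporters were examined in 5 lists. Among acid-base transporters outside the family, 23 of 25 were measured, 0 were called in either direction with oligo 2 (1 higher and 1 lower at an unadjusted p under 0.05), and 1 fell and 0 rose with oligo 1. Over all genes 1.52% were higher and 0.742% lower with oligo 2, and 1.04% higher and 1.43% lower with oligo 1. At an unadjusted p under 0.05, 1493 of the 19938 genes were higher and 1073 lower with oligo 2, and 1478 higher and 1185 lower with oligo 1. The gene that fell was Slc16a1, a lactate and proton cotransporter. It stood at 7.44, 7.32 and 7.39 with oligo 2, at 7.15, 7.22 and 7.32 with oligo 1, at 7.65, 7.71 and 7.73 with sirEGFP and at 7.35, 7.49 and 7.55 in Mock. The sirEGFP arrays were highest, all oligo 1 arrays lay below all Mock arrays, and oligo 2 overlapped with Mock and with oligo 1. The share of all genes with such an order was not counted. The change of Slc16a1 was -0.47 ± 0.11 with oligo 1 (adjusted p = 0.0311) and -0.31 with oligo 2 (adjusted p = 0.175). The call was lost without sirEGFP array 2 or 3 or oligo 1 array 1 or 3 (adjusted p between 0.0643 and 0.128). It was also lost with only the 2 groups in the fit (0.130) and with all probe sets in the fit (0.0604). Without the 3 outermost arrays, with oligo 1 array 3 alone in its group, the oligo 1 change was -0.40.

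The other transporters named by the rule did not pass as deposited. Slc9a8, a sodium proton exchanger of the Golgi, had changes of 0.59 with oligo 2 (adjusted p = 0.0681) and 0.41 with oligo 1 (0.231). With oligo 2 it passed without sirEGFP array 1 (0.71, adjusted p = 0.0381), oligo 1 array 1 or 2 (0.0474 and 0.0492) or oligo 2 array 2 (0.75, adjusted p = 0.0281). It also passed with oligo 2 with quantile normalization (0.0431) and with array weights (0.00538), and with oligo 1 with array weights (0.47, adjusted p = 0.00745). Array weights called 1180 of 19938 genes with oligo 2 and 3814 with oligo 1. Without the 3 outermost arrays the oligo 2 change of Slc9a8 was 0.71. Slc26a6, an anion exchanger that also carries bicarbonate, had 0.10 and 0.42 (adjusted p = 0.838 and 0.107) with oligo 2 and oligo 1, and passed with oligo 1 with array weights (0.41, adjusted p = 0.00615). Slc16a7, another monocarboxylate carrier, had 0.068 and 0.31 (0.910 and 0.341).

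All 16 carbonic anhydrases were measured. Of all genes, 1.52% were called higher and 0.742% lower with oligo 2, and 1.04% higher and 1.43% lower with oligo 1. No carbonic anhydrase was called with oligo 2 by limma (1 higher at an unadjusted p under 0.05), and 1 rose and 0 fell with oligo 1. This was Car5b, a mitochondrial carbonic anhydrase, at 7.70, 7.61 and 7.56 with oligo 2, 7.92, 7.88 and 8.03 with oligo 1, 7.44, 7.36 and 7.43 with sirEGFP and 7.48, 7.38 and 7.65 in Mock. The oligo 1 arrays were the highest of all, an order whose share over all genes was not counted, and oligo 2 overlapped with Mock. The change was 0.53 ± 0.11 with oligo 1 (adjusted p = 0.0190) and 0.21 with oligo 2 (0.463). The oligo 1 call was lost without sirEGFP array 2 or 3 or oligo 1 array 1 or 3 (0.0509 to 0.0998). It was also lost with only the 2 groups in the fit (0.0884). Without the 3 outermost arrays, with oligo 1 array 3 alone in its group, the oligo 1 change was 0.64. Car15, a membrane-bound form, had 0.51 with oligo 2 and 0.38 with oligo 1 (adjusted p = 0.316 and 0.507). Without the 3 outermost arrays its changes were 0.69 and 0.98, the latter from oligo 1 array 3 alone. Car5a and Car1 did not pass, with -0.20 to 0.43 over both siRNAs.

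Regulators and partners of Slc4 transporters held 18 measured genes of 20, with 1 higher and 3 lower with oligo 2, and 0 higher and 1 lower with oligo 1. The shares over all genes were 1.52% higher and 0.742% lower with oligo 2, and 1.04% higher and 1.43% lower with oligo 1. Ppp3cb, a catalytic subunit of the phosphatase calcineurin, was lower with both. It stood at 9.73, 9.75 and 9.78 with oligo 2, at 9.26, 9.71 and 9.50 with oligo 1, at 10.26, 10.45 and 10.34 with sirEGFP and at 10.02, 10.07 and 10.36 in Mock, so that all knockdown arrays lay below all controls, as they did for 0.692% of all genes. Its change was -0.60 ± 0.13 with oligo 2 (adjusted p = 0.0306) and -0.86 ± 0.13 with oligo 1 (adjusted p = 0.00326). The oligo 2 call was lost without sirEGFP array 2 or 3, oligo 1 array 3, or any oligo 2 array (0.0508 to 0.144), and with all probe sets in the fit (0.0831).

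Oxsr1, a kinase that acts below WNK kinases on ion cotransporters, fell by 0.74 with oligo 2 (SE 0.11, adjusted p = 0.00276), and stood at -0.39 with oligo 1 (adjusted p = 0.0960). Its levels were 7.68, 7.46 and 7.56 with oligo 2, 7.83, 7.97 and 7.95 with oligo 1, 8.26, 8.44 and 8.23 with sirEGFP, and 8.03, 8.16 and 8.21 in Mock. All 6 knockdown arrays lay below all 6 controls, a pattern that 0.692% of all genes had, with oligo 2 the lowest group. Ppp3ca, the other calcineurin subunit listed, rose by 0.62 with oligo 2 (adjusted p = 0.0413) and stood at 0.11 with oligo 1 (0.860). Its call was lost without Mock array 1 or 2, sirEGFP array 2 or 3, oligo 1 array 3, or any oligo 2 array (0.0516 to 0.172), and with all probe sets in the fit (0.117).

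Ahcyl2 encodes a relative of IRBIT, a protein known to bind and activate the Slc4a4 transporter. It stood at 8.43, 8.66 and 8.54 with oligo 2, at 9.0002, 9.10 and 9.07 with oligo 1, at 9.32, 8.92 and 9.06 with sirEGFP and at 8.37, 8.51 and 8.78 in Mock. Oligo 2 and Mock overlapped, as did oligo 1 and sirEGFP, so the change of -0.56 with oligo 2 against sirEGFP (adjusted p = 0.0453) depends on which control is used, and it was -0.28 against the mean of both controls (adjusted p = 0.231). The call was also lost with arrays centred on their medians (0.0724), and without Mock array 2, any sirEGFP array, oligo 1 array 3 or any oligo 2 array (0.0607 to 0.186).

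The sodium pump and acid-sensing receptors held 10 measured genes of 14, and limma called 0 with either siRNA, with 1 higher and 0 lower at an unadjusted p under 0.05 for each. Of all genes, 2.26% were called with oligo 2 and 2.47% with oligo 1. Atp1b3, a beta subunit of the sodium pump, had 0.28 with oligo 2 and 0.012 with oligo 1 (adjusted p = 0.374 and 0.988), and Fxyd5, a small subunit that modulates the pump, 0.16 and 0.43 (0.815 and 0.315). The acid-sensing channel gene Asic3 had -0.25 and -0.16, and the proton-sensing receptor gene Gpr4 0.21 and 0.019, all above an adjusted p of 0.05 as deposited. With array weights, which called 3814 of 19938 genes with oligo 1, Fxyd5 (0.51, adjusted p = 0.00574) and Asic3 (-0.33, adjusted p = 0.0221) passed with oligo 1.

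Subunits of the vacuolar proton pump, which acidifies lysosomes and endosomes, were measured for 20 of 22 listed names. With oligo 2 limma called 0 (2 higher and 0 lower at an unadjusted p under 0.05), and with oligo 1 it called 3 higher and 0 lower (10 and 0 at an unadjusted p under 0.05, where 1478 and 1185 of all 19938 genes were). The shares of all genes called were 1.52% higher and 0.742% lower with oligo 2, and 1.04% higher and 1.43% lower with oligo 1. The list median was 0.014 with oligo 2 and 0.35 with oligo 1, against -0.0077 and 0.022 over all genes. Atp6v0d1, of the membrane sector, rose by 0.78 with oligo 1 (adjusted p = 0.0366) and had 0.52 with oligo 2 (0.188). All 6 knockdown arrays lay above all 6 controls for Atp6v0d1, by a gap of 0.12. Of the 19938 genes, 423 had all 6 knockdown arrays above or all 6 below the controls, 138 of them below. Atp6v1e1, of the stalk, rose by 0.61 with oligo 1 (0.0332) and had 0.21 with oligo 2 (0.605). Atp6v1h, a regulatory subunit, had 0.57 with oligo 1 (0.0865) and 0.37 with oligo 2 (0.343), and passed with oligo 1 against the mean of both controls (0.70, adjusted p = 0.00943).

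Atp6v1a, the subunit that splits ATP, rose by 0.45 with oligo 1 (adjusted p = 0.0418) and had -0.13 with oligo 2 (0.716). It stood at 9.003, 9.15 and 9.06 with oligo 2, at 9.60, 9.66 and 9.70 with oligo 1, at 9.21, 9.25 and 9.14 with sirEGFP and at 8.72, 8.83 and 8.996 in Mock. The oligo 1 arrays lay above all others, and oligo 2 overlapped only with sirEGFP, an order whose share over all genes was not counted. With oligo 1 the call of Atp6v1a was lost without any 1 of 10 arrays, all but Mock arrays 1 and 3 (adjusted p between 0.0506 and 0.172), that of Atp6v1e1 without any sirEGFP array or oligo 1 array 1 or 3 (0.0639 to 0.134), and that of Atp6v0d1 without these or Mock array 1 or oligo 2 array 2 (0.0513 to 0.136). The count of pump subunits called, 3 as deposited, was 0 without sirEGFP array 2 or 3 or oligo 1 array 1 or 3, and 5 without oligo 1 array 2. It was 1 without oligo 2 array 2. It was also 1 without sirEGFP array 1, where the subunit called was none of these 3. With only the 2 groups in the fit the calls of all 3 were lost (0.0915 for Atp6v1e1, 0.172 for Atp6v0d1 and 0.136 for Atp6v1a). The count was 0 with arrays centred on their medians. Without the 3 outermost arrays, with oligo 1 array 3 alone in its group, the oligo 1 changes were 0.58 for Atp6v1e1, 0.83 for Atp6v0d1 and 0.51 for Atp6v1a.

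**Figure D4:**
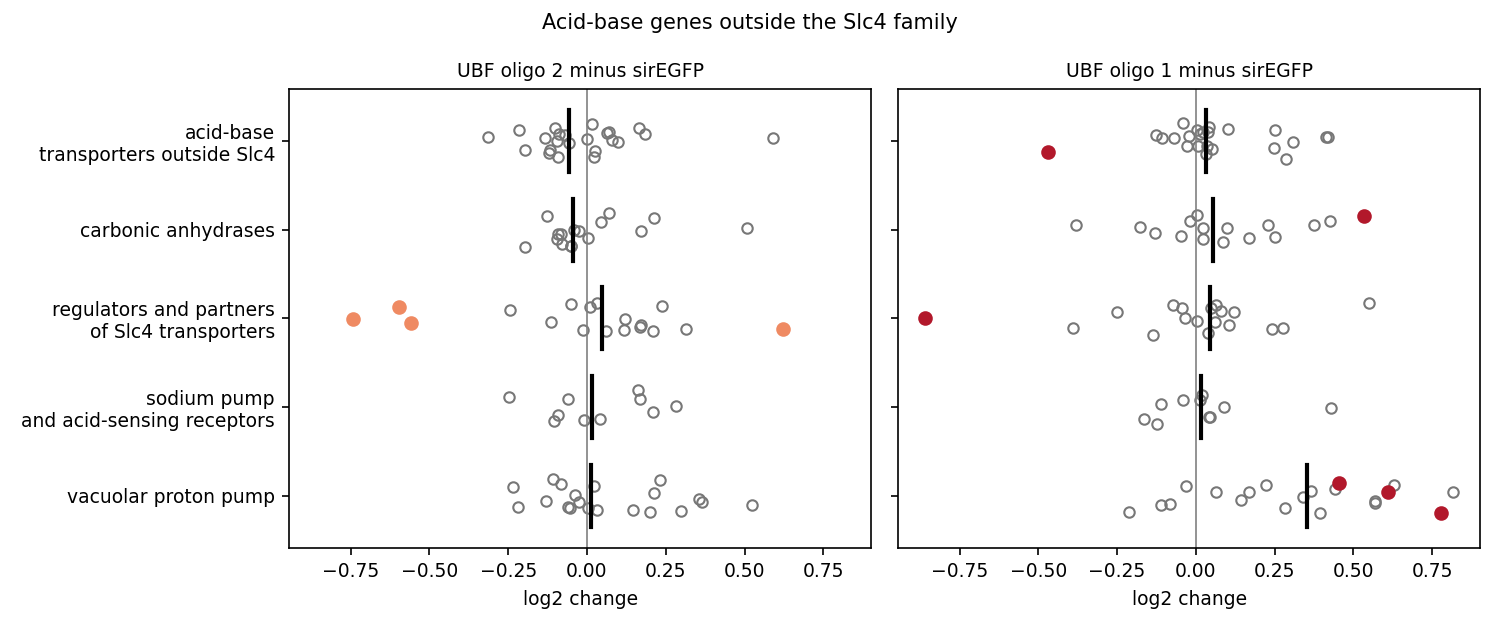
Log2 change against sirEGFP (x axis) of the measured genes of 5 acid-base lists (y axis), with oligo 2 on the left and oligo 1 on the right. Circles are genes, filled where limma's adjusted p is under 0.05, and black bars are list medians. With oligo 1 the proton pump median is 0.35 and 3 of 20 genes are filled, where 1.04% of all genes were called higher. With oligo 2 that median is 0.014 with 0 filled.

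Genes with the pattern most like that of Slc4a4 were found by the root mean square distance over the 12 arrays, after each gene was centred on its own mean. Slc4a4 itself varied about its mean by 0.76 in this measure, and the median distance of other genes from it was 0.80. The nearest were Idi1, of isoprenoid synthesis, at 0.29, Fancb, of DNA repair, at 0.297, Prc1, of the central spindle, at 0.34, Ndufaf2, an assembly factor of respiratory complex I, at 0.39, and Ska3, of the kinetochore, at 0.41. All 5 lay below all controls on all knockdown arrays, as 0.692% of all genes did, and had a lower mean with oligo 1 than with oligo 2. Their choice by likeness to Slc4a4 favours both traits. Idi1 stood at 9.35, 9.61 and 9.48 with oligo 2, at 8.79, 9.32 and 9.10 with oligo 1, at 10.03, 10.62 and 10.41 with sirEGFP, and at 10.25, 10.69 and 10.55 in Mock.

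The genes nearest to the mirror image of Slc4a4 were Ppargc1a, a coactivator of mitochondrial genes, at 0.29, Ang2, of the angiogenin family of ribonucleases, at 0.32, the serpin gene Serpinb9e at 0.32, Fam214a at 0.37 and Xdh, which encodes xanthine dehydrogenase, at 0.37. Ppargc1a stood at 7.54, 8.31 and 8.004 with oligo 2, at 8.49, 9.17 and 8.30 with oligo 1, at 6.58, 7.12 and 6.72 with sirEGFP and at 6.89, 6.98 and 6.97 in Mock. These 5 lay above all controls on all knockdown arrays, which their choice by likeness to the mirror image favours. The distances describe likeness over 12 arrays in 4 groups, share those arrays with the choice of Slc4a4, and carry no test.

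**Figure D5:**
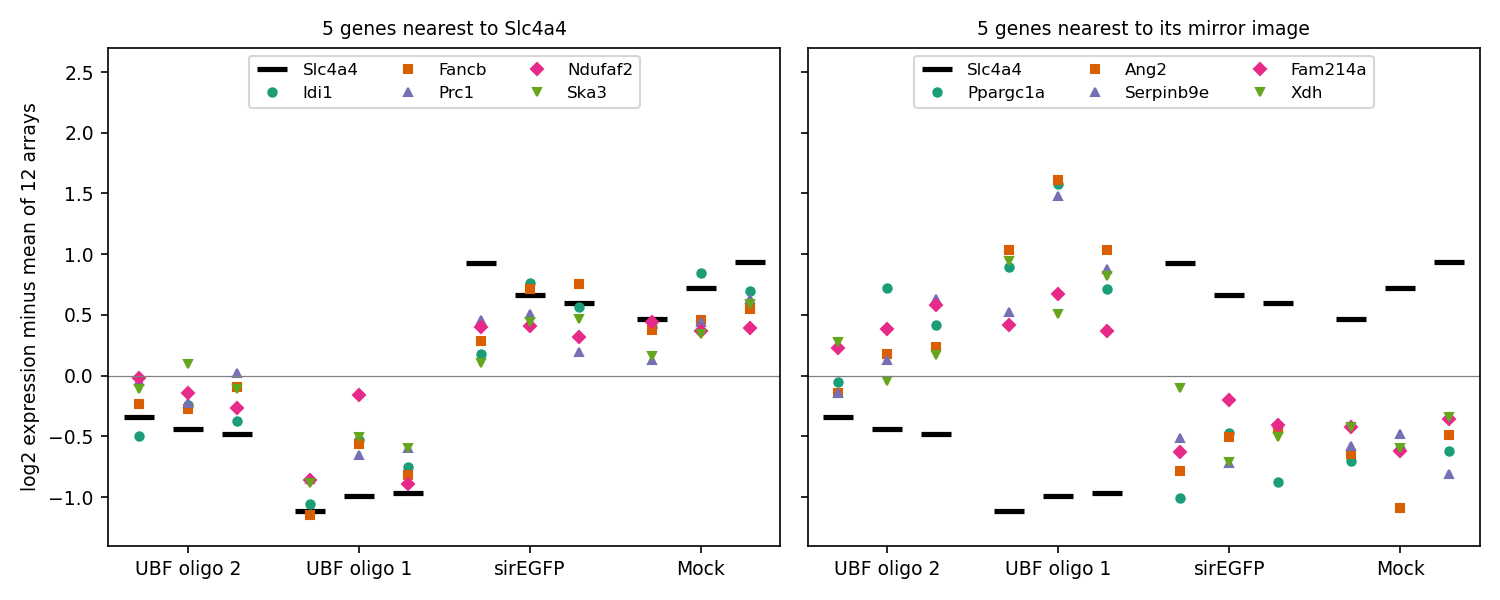
Log2 expression minus the mean of the 12 arrays (y axis), by array within each group (x axis), for Slc4a4 (black bars) and the 5 genes nearest to it on the left, and the 5 nearest to its mirror image on the right. The genes on the left have their lowest mean with oligo 1 and are high in both control groups; those on the right have their highest mean with oligo 1 and are low in both control groups.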

How the data were processed

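Each deposited value is the log2 expression of 1 probe set on 1 array, a scale read from the values themselves. How the authors corrected background, summarised probes and normalised is not given; limma is named per the submitters' processing notes, with no step or version. Signal over background could not be judged, so the precision rests on 3 arrays per group. In the platform annotation 21789 probe sets carried 1 gene symbol, 1621 several and 12102 none. Of the symbols, 21698 matched RefSeq (GRCm38.p6) by Entrez number. A gene with several probe sets (999 genes) was represented by its brightest, which gave 19938 genes.

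All genes were tested with limma 3.58.1 (R 4.3.3, lmFit then eBayes, two-sided), with a mean for every one of the 4 groups, 12 arrays and 8 residual degrees of freedom. Benjamini-Hochberg adjustment ran over all genes, or over all 35512 probe sets for the other probe set of Slc4a3, and an adjusted p under 0.05 was the threshold for a call. The fit was tested on simulated data.

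The members and lists were chosen with earlier results of these data known. The naming rule took all members, Ubtf, up to 4 genes per list with the smallest p against sirEGFP and every list gene called there, and 5 genes nearest to Slc4a4 and to its mirror image, predicted genes passed over. Marker lists covered fibroblasts, epithelium, macrophages, erythroid cells and neurons. Same-numbered arrays deviated together in 12 of 18 pairs at a correlation over 0.1 (range -0.24 to 0.55). Their median correlation was 0.17, against -0.13 for arrays of different numbers. Group means were removed first, which ties high values for the same number to low values for different numbers, so -0.13 is no independent baseline. The design does not give the numbers as pairs, so the main fit left them out, and a fit with the number as a block is given at the end.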

Additional observations from a re-analysis of the deposited data

Results flagged for a closer look

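Slc4a4 was flagged because its change differed between the siRNAs by limma's test of the difference itself, 0.60 (oligo 2 minus oligo 1, adjusted p = 0.0198). Its test is not independent of the choice of Slc4a4, which used the same knockdown arrays. Atp6v1a was flagged for its own difference between the siRNAs by the same test, at -0.58 (adjusted p = 0.00783), a call kept when any 1 array was left out. Without the 3 outermost arrays, with oligo 1 array 3 alone in its group, the difference was -0.63. Ahcyl2 was flagged at -0.51 (adjusted p = 0.0496), a call lost in 10 of the 12 fits that leave out 1 array (adjusted p between 0.0522 and 0.178), all but those without Mock array 3 or sirEGFP array 1.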

How the results depend on the processing

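Slc4a4 was lower with both siRNAs under all alternatives tried, from -1.22 to -1.05 with oligo 2 and from -1.82 to -1.60 with oligo 1 against sirEGFP, and from -1.55 to -1.31 for the mean of both against Mock. It was chosen for this change, and the range is a description. The count of Slc4 genes called between the siRNAs was 0 with all probe sets in the fit and between 0 and 1 when 1 array was left out. It was 2 with array weights (Slc4a11 besides Slc4a4), where 3164 genes were called. With oligo 1 against sirEGFP the count was 2 with array weights (Slc4a11) and 2 with the mean of the probe sets of a gene, where Slc4a3 was called (0.59, adjusted p = 0.0172), as it was in the mean of both against Mock (2 genes). Leaving out the 3 outermost arrays and testing all probe sets were chosen after seeing the data. The replicate block called 1 Slc4 gene in each comparison that called 1 without it, while the calls over all genes went to 773 with oligo 2 (451 without it) and 878 with oligo 1 (493), and 9 of 12 arrays correlated best with their own number, a hint from the data and not from the design. With the block Ubtf passed with oligo 2 and oligo 1 (adjusted p = 0.0115 and 0.0172), Slc9a8 with oligo 2 (0.0117) and Atp6v1h with oligo 1 (0.0119), and 5 pump subunits were called with oligo 1. With all probe sets in the fit, 0 pump subunits were called with oligo 1, and with array weights 10. Array weights called 1180 genes with oligo 2 and 3814 with oligo 1, among them Car15, Oxsr1 and Atp6v1h with oligo 1 (adjusted p = 0.00104, 0.00446 and 0.00597). With only the groups compared 101 genes were called with oligo 1, and against the mean of both controls 979 with oligo 2 and 753 with oligo 1. With all probe sets in the fit 201 of the 19938 genes were called with oligo 2 and 197 with oligo 1. Leaving out 1 array gave 198 to 627 with oligo 2 and 155 to 863 with oligo 1.

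Signs that turned belonged to values that did not pass. With array weights they were -0.10 for Slc4a1, -0.15 for Slc4a10, -0.14 for Car1, 0.039 for Ahcyl2 and -0.14 for Atp1b3, all with oligo 1. Without the 3 outermost arrays they were -0.15 (Slc4a1), -0.31 (Slc4a10), -0.196 (Car1), 0.076 (Ahcyl2) and -0.21 (Atp1b3) with oligo 1, each from oligo 1 array 3 alone. Against the mean of both controls they were -0.082 (Slc4a10), 0.23 (Ahcyl2) and -0.16 (Gpr4) with oligo 1, and -0.057 (Slc4a11) and 0.047 (Atp6v1a) with oligo 2. Centring gave 0.019 (Slc4a1, oligo 2), -0.011 (Slc4a10, oligo 1) and -0.00043 (Atp1b3, oligo 1), quantile normalization 0.0017 (Slc4a1) and 0.016 (Slc4a5) with oligo 2, and averaging probe sets -0.030 (Atp1b3, oligo 1). Leaving out 1 array at a time gave, with oligo 1, -0.085 to 0.15 for Slc4a1, -0.17 to 0.21 for Slc4a10, -0.25 to 0.031 for Slc4a8, -0.13 to 0.063 for Ahcyl2, -0.12 to 0.088 for Atp1b3, -0.10 to 0.11 for Gpr4 and -0.0014 to 0.26 for Ppp3ca. With oligo 2 it gave -0.11 to 0.019 for Slc4a1, -0.25 to 0.13 for Slc4a10, -0.15 to 0.22 for Slc4a11, -0.046 to 0.29 for Slc4a2, -0.15 to 0.066 for Slc4a5, -0.00045 to 0.10 for Slc4a8, -0.43 to 0.043 for Car1, -0.051 to 0.11 for Car5a and -0.021 to 0.15 for Slc16a7. The cause of these turns was not tested.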
